A study of Mus musculus with 7 samples.

Results

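The airway secretoglobins Scgb1a1, Scgb1c1, Scgb3a1 and Scgb3a2 were followed in the nasal tissue of mice that inhaled diesel exhaust particles (DEPs). The members were chosen by name, through the RefSeq transcript that each array probe carries as its identifier. Each of the 4 genes, of 21367 genes named on the array, had 1 probe among 39429. Of these 4 probes, 3 were bright enough to be tested, among 25156 probes tested in all. Female BALB/c mice aged 6 weeks breathed 100 µg/m3 DEPs from an ultrasonic nebulizer for 1 hour per day on 5 days per week, and the controls received the saline in which the particles were suspended. RNA from the nasal cavity, with septum and turbinate, was compared on 7 two-colour arrays, 4 after 4 weeks of exposure and 3 after 8 weeks. DEP RNA carried the dye Cy5 and control RNA the dye Cy3 on every array. No array had the dyes swapped, so that an effect of the dye on a probe and an effect of DEPs cannot be told apart. The arrays of each exposure time shared a slide, and an effect of the slide cannot be told apart from one of time either. The study used 32 mice, and how many of them gave RNA to an array, or whether RNA was pooled, is not given in the sources used here. The p-values therefore measure the spread between these arrays, whose origin in separate animals is not stated beyond the label of biological replicates.

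Secretoglobins are small secreted proteins that form disulphide-linked dimers around a hydrophobic pocket. Several of them are the leading products of club cells, the non-ciliated secretory cells of the airway lining, and their RNA falls in rodent airways when inhaled agents injure club cells. Scgb1a1 encodes the club cell secretory protein, also called uteroglobin or CC10, which dampens inflammation in the lung. Scgb3a1 and Scgb3a2 encode related airway proteins, and Scgb3a2 is a target of the lung transcription factor NKX2-1. Scgb1c1 encodes a secretoglobin known as RYD5, which was first found in the olfactory mucosa. In bulk tissue, fewer secretory cells and less RNA per cell cannot be told apart.

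The promoters of Scgb1c1 and Scgb3a1 are shown because these genes moved in opposite directions at 4 weeks, and the table of RefSeq promoters (build GRCm38.p6) held both. Scgb1a1 and Scgb3a2 had no entry. The stretches cover the 250 bases before the gene's start, on the plus strand, at chr7:140845315-140845564 for Scgb1c1 and at chr11:49663345-49663594 for Scgb3a1. Capitals mark matches to 3 short motifs searched on both strands, which do not overlap here, and which were chosen with the sequences in view.
Scgb1c1: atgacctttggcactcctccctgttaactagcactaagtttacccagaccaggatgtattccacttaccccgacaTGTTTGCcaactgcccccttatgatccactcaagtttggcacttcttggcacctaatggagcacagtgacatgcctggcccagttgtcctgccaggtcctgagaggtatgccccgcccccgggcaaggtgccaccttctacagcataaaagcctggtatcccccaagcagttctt
Scgb3a1: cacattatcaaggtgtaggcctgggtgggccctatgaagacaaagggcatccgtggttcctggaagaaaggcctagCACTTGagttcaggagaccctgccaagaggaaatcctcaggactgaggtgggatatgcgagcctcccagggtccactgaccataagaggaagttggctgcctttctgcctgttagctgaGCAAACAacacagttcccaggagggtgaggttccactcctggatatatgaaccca
The forkhead core TGTTTNC, bound by factors of the FOXA family, was found once in each promoter, 175 to 169 bases before the start of Scgb1c1 and, on the other strand, 55 to 49 bases before that of Scgb3a1. The NKX2 core CAAGTG was found once, on the minus strand of Scgb3a1 at 174 to 169 bases, and not in the Scgb1c1 stretch. The TATA box core TATAAA was found in neither. Of the 32851 promoters in the table, 17.8% held the forkhead core, 11.6% the NKX2 core and 12.4% the TATA box core over the same length. These matches are descriptions of the letters and say nothing about binding.

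Scgb1c1 had higher expression in DEP-exposed tissue at 4 weeks and lower expression at 8 weeks. Its probe was bright in both channels on all 7 arrays, with background-subtracted signals of 69130 to 98709 scanner units for DEP RNA and 59883 to 74754.5 for control RNA at 4 weeks. At 8 weeks the same signals were 51504 to 54518.5 for DEP RNA and 63311 to 71078.5 for control RNA. No spot was saturated. On the 4-week arrays the log2 ratio (DEP over control) was 0.35, 0.49, 0.35 and 0.44. It was −0.24, −0.22 and −0.08 on the 3 arrays at 8 weeks. Every 4-week array thus lay above 0 and every 8-week array below 0, and the groups did not overlap. Of the 24810 probes measured on every array, 41.3% likewise had no overlap between the times in one direction or the other.

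The mean log2 ratio of Scgb1c1 was 0.41 ± 0.07 (SD, n = 4) at 4 weeks, a 1.32-fold higher level with DEPs (limma, standard error 0.05, adjusted p = 0.000802). At 8 weeks it was −0.18 ± 0.09 (SD, n = 3), a 1.13-fold lower level (limma, standard error 0.06, adjusted p = 0.044). The change between the times was −0.59 on the log2 scale, with a 95% confidence interval of −0.76 to −0.41 (limma, adjusted p = 0.0014). The 4-week value and the change between times passed the threshold of an adjusted p of at most 0.05 under all 18 and all 17 alternative settings. The 8-week value kept its sign under all 18, with −0.28 as its lowest, from the processed signals, but passed under only 8 of them, and fell short without 8-week replicate 1 (−0.15, adjusted p = 0.165), without 8-week replicate 2 (−0.16, adjusted p = 0.189) and without 4-week replicates 2, 3 or 4. Probes called higher at 4 weeks, lower at 8 weeks and changed between the times made up 3.39% of all probes tested, 854 in number. The Scgb1c1 probe is a single spot on each array and was among the brightest, with 33 to 50 brighter spots per array. It thus lay near the upper end of the intensities over which the normalisation was fitted. The part of that place in its ratios was not tested.

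The channels of the arrays were also compared between the times, after they were brought to a common scale. The control channel of Scgb1c1 had log2 intensities of 15.96 ± 0.06 at 4 weeks (SD, n = 4) and 16.03 ± 0.05 at 8 weeks (SD, n = 3), a difference of 0.07 that did not pass the test (limma, adjusted p = 0.373, 95% confidence interval −0.06 to 0.20). The DEP channel went from 16.37 ± 0.11 (SD, n = 4) to 15.85 ± 0.06 (SD, n = 3), which was lower by 0.51 on the log2 scale (fitted difference −0.51, limma, adjusted p = 0.000967). With quantile normalisation between arrays the differences were 0.27 for the control channel (limma, adjusted p = 0.0771) and −0.29 for the DEP channel (limma, adjusted p = 0.0222), so that the share of each channel in the change depended on the scaling. Of all probes, 31.7% changed in the control channel and 40.2% in the DEP channel.

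**Figure D1:**
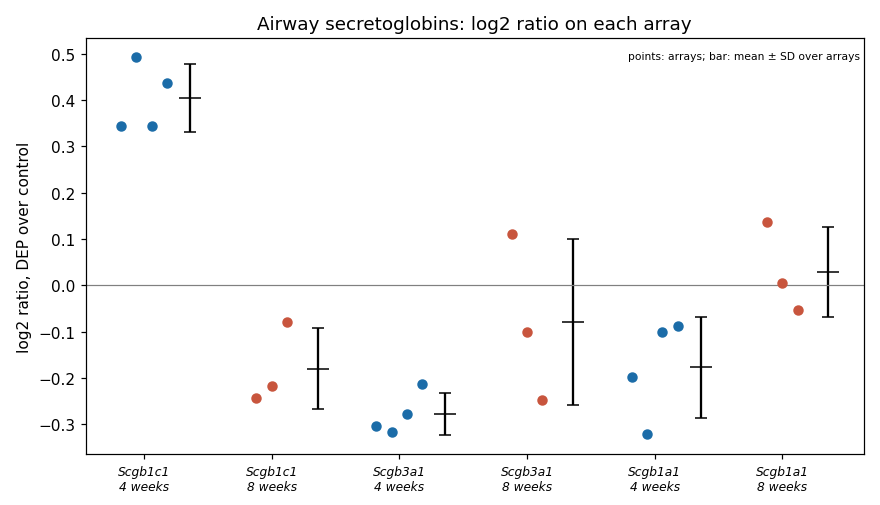
Log2 ratio of DEP over control (y axis) on each array for the 3 secretoglobins whose probes were tested, at 4 weeks (blue, 4 arrays) and 8 weeks (red, 3 arrays), with the mean ± SD over arrays as a black bar. The Scgb1c1 points lie between 0.35 and 0.49 at 4 weeks and between −0.24 and −0.08 at 8 weeks, while the Scgb3a1 points at 4 weeks all lie below 0, between −0.32 and −0.21.

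Scgb3a1 had lower expression with DEPs at 4 weeks. Its probe is printed as 10 spots per array, and each of them stood well above background for both dyes throughout the 7 arrays. The median spot signal at 4 weeks was 562.75 to 664.25 units for DEP RNA and 836.25 to 926 for control RNA, and at 8 weeks 391.5 to 591.25 for DEP RNA and 718.5 to 896.5 for control RNA. The log2 ratio was −0.30, −0.32, −0.28 and −0.21 on the 4 arrays at 4 weeks. On the 3 arrays at 8 weeks it was 0.11, −0.10 and −0.25. The 4-week arrays lay close together and below 0, whereas the 8-week arrays fell on both sides of 0 and overlapped with those at 4 weeks.

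The mean log2 ratio of Scgb3a1 was −0.28 ± 0.05 (SD, n = 4) at 4 weeks, which is 1.21-fold lower with DEPs (limma, standard error 0.06, adjusted p = 0.0106). After normalisation the DEP spot was below the control spot in 40 of 40 pairs at 4 weeks, 10 repeated spots on each of 4 arrays. Spots on the same array share their RNA and are not separate replicates. The 4-week call held under all 18 alternative settings, with values of −0.38 to −0.25. At 8 weeks the mean was −0.08 ± 0.18 (SD, n = 3), which did not pass the test (limma, adjusted p = 0.432, 95% confidence interval −0.24 to 0.09). The DEP spot was below the control spot in 1, 9 and 10 of the 10 spots on the 3 arrays at 8 weeks, with a spread between spots of 0.07 to 0.09 (SD of the log2 ratio) on each array. The arrays at 8 weeks therefore differed from each other by more than their own spots did. The 8-week value depended on the normalisation. With each array only centred on its median, it was −0.39 (limma, adjusted p = 0.0071), against a median of all probes of −0.11 under that setting, which leaves −0.28 relative to that median. The change between the times was 0.20 on the log2 scale and did not pass the test (limma, adjusted p = 0.153, 95% confidence interval −0.02 to 0.42), and it was −0.01 with median centring and 0.10 without 8-week replicate 1.

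In the separate channels, Scgb3a1 had control log2 intensities of 9.69 ± 0.06 at 4 weeks (SD, n = 4) and 9.69 ± 0.08 at 8 weeks (SD, n = 3). The DEP channel held 9.41 ± 0.10 at 4 weeks (SD, n = 4) and 9.61 ± 0.18 at 8 weeks (SD, n = 3). Neither difference between the times passed the test (limma, adjusted p = 0.97 for control and 0.157 for DEP RNA). Without 8-week replicate 3 the DEP difference was 0.30 and passed (limma, adjusted p = 0.0422), and with no scaling between arrays the control difference was −0.25 (limma, adjusted p = 0.0676).

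**Figure D2:**
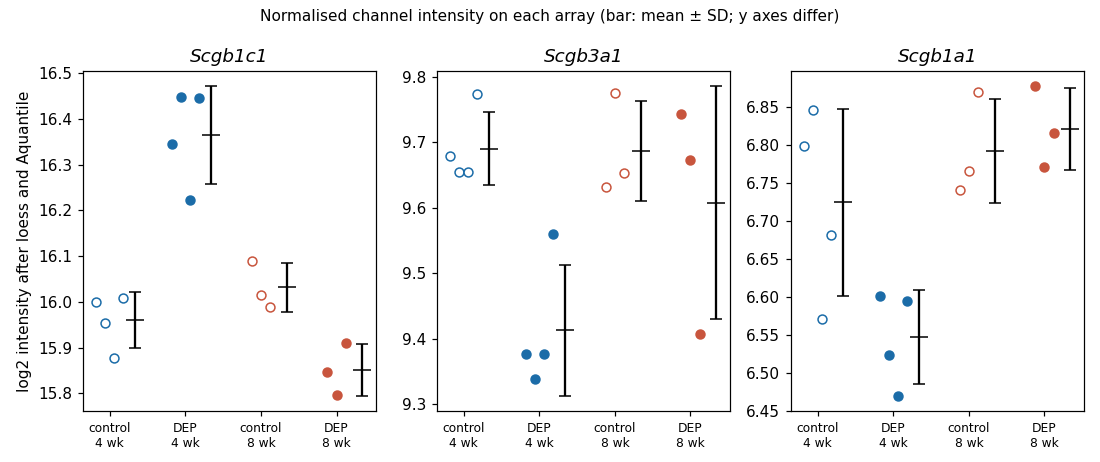
Log2 intensity of the control channel (open points) and the DEP channel (filled points) on each array, at 4 weeks (blue) and 8 weeks (red), after normalisation within and between arrays, with mean ± SD as black bars and a separate y axis for each gene. The DEP channel of Scgb1c1 lies above the control channel at 4 weeks (16.37 against 15.96) and below it at 8 weeks (15.85 against 16.03).

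Scgb1a1, the classical club cell product, was close to the background of these arrays. Its probe is also printed as 10 spots, with a median signal at 4 weeks of 26.25 to 31.5 units for DEP RNA and 39 to 48 for control RNA. At 8 weeks it was 44 to 56.25 for DEP RNA and 59.75 to 79.75 for control RNA. At 4 weeks more than 5 of its 10 spots rose well above background for DEP RNA on 3 of the 4 arrays and for control RNA on only 1 of the 4. At 8 weeks this was so on all 3 arrays for both. Of the 153 negative control spots per array, which match no transcript, 3 to 19 reached the Scgb1a1 median in the control channel at 4 weeks and 0 to 5 at 8 weeks. In the DEP channel 0 to 2 did so on any array.

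The log2 ratio of Scgb1a1 was −0.20, −0.32, −0.10 and −0.09 on the 4 arrays at 4 weeks. On the 3 arrays at 8 weeks it was 0.14, 0.0046 and −0.05. All 4-week arrays lay below all 8-week arrays, and 41.3% of probes had such a separation in one direction or the other. The mean at 4 weeks was −0.18 ± 0.11 (SD, n = 4), 1.13-fold lower with DEPs (limma, adjusted p = 0.0438). This call rested on a few spots. A control spot of 205 units on replicate 1 and one of 506 units on replicate 2 stood far above the others of the same probe, and the scanner software had marked them as outliers. With the median over the 10 spots in place of the mean the value was −0.09 (limma, adjusted p = 0.193), and with the marked spots left out −0.10 (limma, adjusted p = 0.145). Only 4 of 17 alternative settings kept the call, and leaving out any 1 of the 4-week arrays or 8-week replicate 2 ended it. At 8 weeks the mean was 0.03 ± 0.10 (SD, n = 3, adjusted p = 0.776, limma), and −0.02 without replicate 1 (adjusted p = 0.856). The change between the times was 0.21 on the log2 scale and did not pass the test (limma, adjusted p = 0.115).

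The place of a spot on the array mattered for Scgb1a1. On the 8-week arrays the 5 spots in rows 46 to 238 had median signals of 49 to 75.5 units in the DEP channel and 79 to 88.5 in the control channel, and the 5 spots in rows 304 to 516 had 14.5 to 20.5 and 28 to 34.5. The median of the negative control spots stayed between −3 and 5.25 in every part of the same arrays, from the first rows to the last. The Scgb3a1 spots did not fall in the same way. Their medians in the control channel were 734.5 to 1034.5 in the first 5 spots and 715 to 894 in the last 5. Both channels of Scgb1a1 fell together. Its log2 ratio at 8 weeks was thus 0.17, 0.05 and −0.03 over the first 5 spots and 0.11, −0.04 and −0.08 over the last 5. The part of the spot position in the Scgb1a1 values was not tested further.

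**Figure D3:**
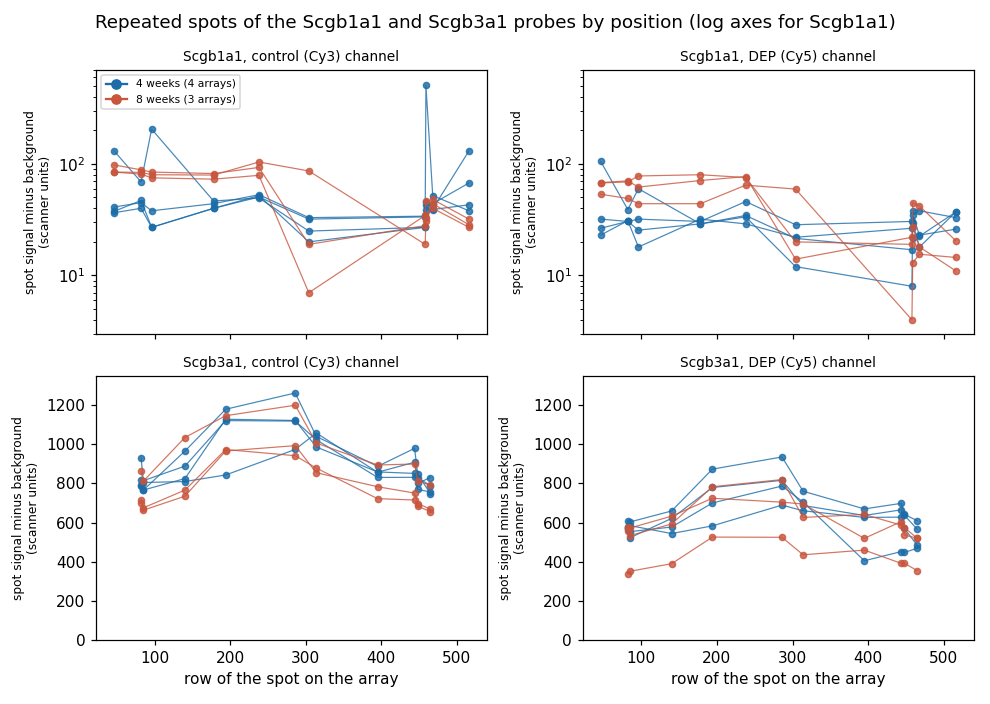
Background-subtracted signal of each of the 10 spots of the Scgb1a1 probe (upper panels, logarithmic y axis) and the Scgb3a1 probe (lower panels, linear y axis) against the row of the spot on the array, with 1 line per array (blue 4 weeks, red 8 weeks) and the control channel on the left. The 8-week lines of Scgb1a1 drop between rows 238 and 304 on most arrays, and the single control spots of 205 and 506 units stand out among the 4-week lines.

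Scgb3a2 was not well above background in either channel on any of the 7 arrays. Its single spot gave −5.5 to 5.5 units for DEP RNA and −11 to 23.5 for control RNA, so no ratio is given for it. Across the family, all 3 tested members were called at 4 weeks, 1 higher and 2 lower, where 37% of all probes tested were called, 20.9% higher and 16.1% lower. The Scgb1a1 call in this count held under only 4 of 17 alternative settings. At 8 weeks 1 of the 3 was called, as lower, against 36.2% of all probes called and 17.4% called lower. Between the times 1 of the 3 changed, downwards, against 30.1% of all probes changed and 16.2% changed downwards. None reached the thresholds that the study used, a p-value of at most 0.01 with at least a 2-fold change, which 1.12% of probes passed at 4 weeks and 2.67% at 8 weeks. The members' changes were thus small ones among many. How the higher and lower calls divide over all probes depended on the scaling, with 56.4% of calls higher at 4 weeks, or 42.2% with median centring and 68.3% with the scanner software's processed signals, and with 52% higher at 8 weeks, or 25.3% with median centring.

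**Figure D4:**
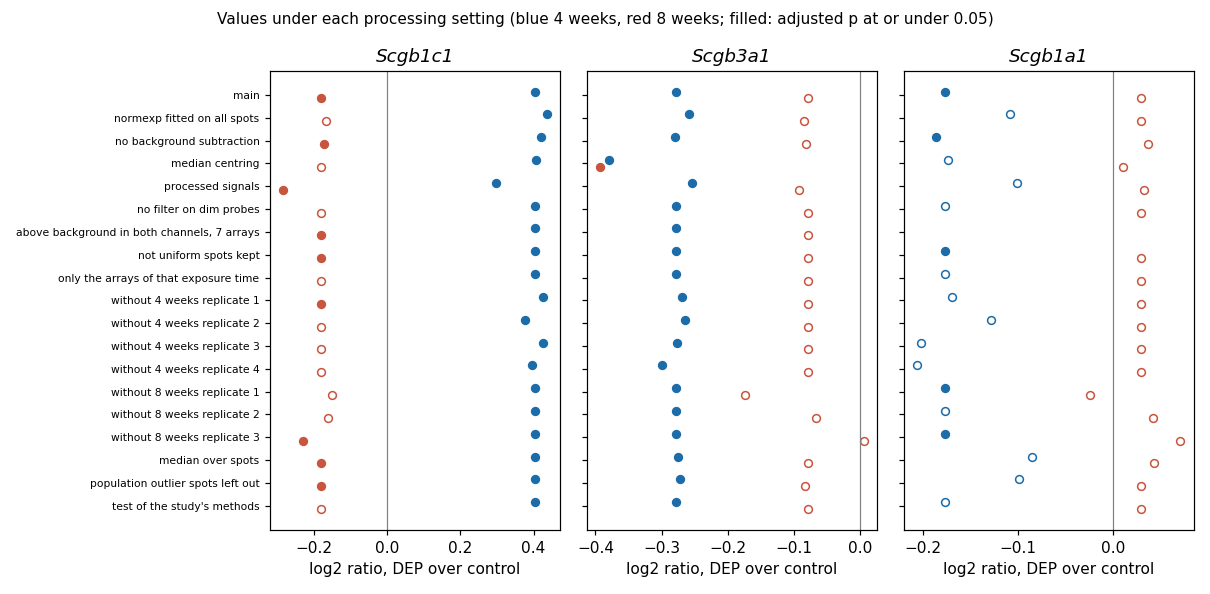
Log2 ratio of DEP over control (x axis) for the 3 tested secretoglobins under the reported setting (top row, main) and each alternative (other rows), at 4 weeks (blue) and 8 weeks (red), with filled points where the adjusted p was at most 0.05 and a separate x axis for each gene. The 4-week points of Scgb1c1 (0.30 to 0.44) and Scgb3a1 (−0.38 to −0.25) are filled throughout, whereas most of the 4-week points of Scgb1a1 are open.

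The other secretoglobins on the array, all of them of the Scgb1b and Scgb2b groups that encode androgen-binding proteins, moved far more. Of 19 such genes 17 were tested, and 15 were higher, 1 was lower and 1 did not pass at 4 weeks, with a median log2 ratio of 1.85. At 8 weeks 14 were higher and 3 did not pass, with a median of 1.29. Of all 25156 probes tested, 5257 were higher at 4 weeks and 4730 at 8 weeks, and their median was near 0 at both times. Averaged over the 7 arrays the highest of the other secretoglobins were Scgb1b7 (log2 ratio 1.56 at 4 weeks and 4.49 at 8 weeks) and Scgb1b19 (1.80 and 4.17). The lowest were Scgb2b3 (0.44 at 4 weeks, and 0.05 at 8 weeks, which did not pass the test and was −0.16 with median centring) and Scgb2b12 (−0.27 and 1.05). Their rank holds for the reported setting, since under other scalings Scgb2b3 reached 1.34 at 4 weeks and Scgb2b12 3.77 at 8 weeks. Genes within each of these groups are similar copies. Whether their probes also bind each other's transcripts was not tested, so their separate values are uncertain.

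Other genes typical of airway secretory cells moved in mixed directions. Of 16 such genes, all tested, 8 rose, 2 fell and 6 did not pass at 4 weeks, with a median log2 ratio of 0.22, where 20.9% of all probes rose and 16.1% fell. At 8 weeks 7 rose, 4 fell and 5 did not pass (median 0.06), against 4730 higher and 4366 lower of all 25156 probes tested. With median centring 4 rose and 6 fell at 8 weeks and the list median was −0.11, as was that of all probes, and with the processed signals 3 rose and 4 fell. Pigr, the receptor that carries antibodies across the epithelium, rose at both times (log2 ratio 0.35 and 1.64), as did the antimicrobial family member Bpifb1 (0.70 and 0.40, the latter 0.076 under another scaling). Tff2, a trefoil peptide that protects mucosa, fell at both times (−0.40 and −1.64). The gel-forming mucin Muc5b, also counted below among the Bowman's gland markers, was at 0.25 at 4 weeks (limma, adjusted p = 0.0608) and fell by 1.54 at 8 weeks. Between the times the ratio rose for 6 genes of the list, fell for 7 and did not pass for 3. Of all probes 30.1% changed, 16.2% downwards. With median centring 3 rose and 8 fell. Besides Tff2 and Muc5b, those that fell included Cyp2f2 (0.56 and −0.10), Cbr2 (0.64 and −0.69) and Hp (0.65 and −0.07). These were called higher at 4 weeks, and only Cbr2 of them was called lower at 8 weeks. The decrease of Scgb3a1 at 4 weeks was thus not shared by most of the secretory genes.

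Among regulators of secretory cell genes, 13 of 15 were tested. Nkx2-1, the factor named above for Scgb3a2, and Foxa2 were too dim to test. At 4 weeks 3 rose, 4 fell and 6 did not pass, and at 8 weeks 2 rose, 3 fell and 8 did not pass, where 37% and 36.2% of all probes were called. With median centring 1 rose and 8 fell at 8 weeks. Cebpd, a C/EBP factor, fell by 1.56 on the log2 scale at 4 weeks and was at 0.24 at 8 weeks (limma, adjusted p = 0.0238, but −0.09 with median centring). Its relative Cebpa, which takes part in club cell maturation, was lower at both times (−0.24 and −1.01). Cebpb was at −0.31 at 4 weeks and at −0.18 at 8 weeks, where it did not pass (limma, adjusted p = 0.0671). The epithelial ETS factor Elf3 rose at 4 weeks (0.50) and was at 0.12 at 8 weeks (limma, adjusted p = 0.424). Of 4 genes reported as receptors or effectors of secretoglobins 3 were tested, and 1 of them, Lmbr1l, was called at both times (0.24 and 0.31, the latter −0.0045 with median centring), a share near the 37% and 36.2% of all probes called.

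The olfactory neuron markers and most sustentacular cell markers changed sign between the times, as Scgb1c1 did, and the Bowman's gland markers were mixed. Such a reversal was not confined to these lists. The secretory gene Cbr2 (log2 ratio 0.64 and −0.69) and the regulator Ehf (0.30 and −0.23) were also called higher, then lower. Cebpd, given above, went the other way. Of all probes tested, 3.39% reversed as Scgb1c1 did. Of all probes tested, 20.9% rose and 16.1% fell at 4 weeks, and 36.2% were called at 8 weeks, 17.4% as lower. Of 6 olfactory neuron markers, all tested, 5 rose and 1, Adcy3, did not pass at 4 weeks (log2 ratio 0.05, limma, adjusted p = 0.867), and all 6 fell at 8 weeks, with list medians of 0.36 to 0.66 on the 4-week arrays and −0.72 to −0.62 on the 8-week arrays. The olfactory marker protein gene Omp was at 0.89 and −0.43, and the G-protein subunit gene Gng13 at 0.52 and −0.94. The sustentacular cells, which support these neurons, were represented by 5 markers, of which 4 were tested. All 4 rose at 4 weeks (array medians 0.29 to 0.35; 3 of 4 with median centring), and at 8 weeks 3 fell and 1 rose (array medians −0.50 to −0.40). The olfactory cytochromes Cyp2g1 (0.16 and −0.50) and Cyp1a2 (0.44 and −0.43) and the lipid carrier gene Sec14l3 (0.42 and −0.64) changed direction like Scgb1c1, whereas Ermn rose at both times (0.32 and 1.70). The 5 markers of Bowman's glands, which secrete the mucus over the olfactory epithelium, were all tested. At 4 weeks 1 rose, 1 fell and 3 did not pass, near the shares of all probes (array medians 0.06 to 0.31). At 8 weeks 1 rose, 3 fell and 1 did not pass (array medians −0.47 to −0.16). Cyp2a5 had no named probe, and the part of the tissue's makeup in the Scgb1c1 values was not tested.

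Beside the lists that follow, the shares of all probes tested were 20.9% higher and 16.1% lower at 4 weeks. At 8 weeks 36.2% of all probes were called, 17.4% as lower. Of 9 ciliated cell markers 6 were tested, and 3 were called higher and none lower at either time. Their medians were 0.17 at 4 weeks and 0.15 at 8 weeks. With median centring 1 was higher and 2 were lower at 8 weeks, with a median of −0.05. All 5 basal cell markers were tested, with 3 higher and 1 lower at 4 weeks and 4 higher at 8 weeks. Of the 6 goblet cell markers 4 were tested, with 2 higher and 2 lower at 4 weeks, and 1 lower at 8 weeks. Higher at 4 weeks were Muc5ac (log2 ratio 1.21, and 0.06 at 8 weeks) and Fcgbp (0.58 and 0.06). Lower were Agr2 (−0.32 and −0.21) and Spdef (−0.22 and −0.28). Spdef, the 1 called at 8 weeks, was also counted among the regulators. Of 6 leukocyte markers 4 were tested, with 1 lower at each time. That gene was S100a8, a product of neutrophils (log2 ratio −0.77 at 4 weeks and −1.78 at 8 weeks).

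**Figure D5:**
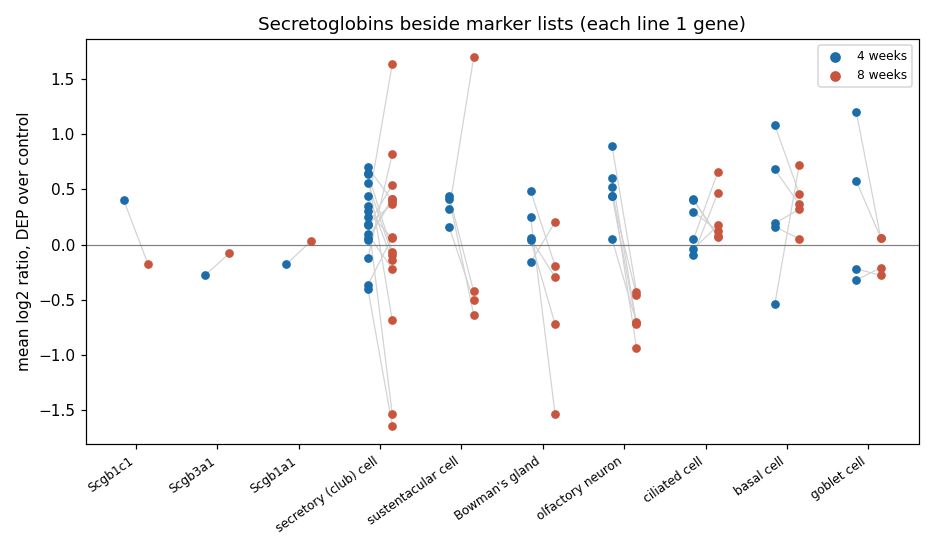
Mean log2 ratio of DEP over control (y axis) at 4 weeks (blue) and 8 weeks (red) for the 3 tested secretoglobins and for each tested gene of 7 marker lists (x axis), with a grey line joining both times of a gene. Scgb1c1 goes from 0.41 to −0.18, and the olfactory neuron markers go from a median of 0.48 to one of −0.71, while the secretory list holds genes on both sides of 0 at both times.

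The genes whose log2 ratios lay nearest to those of each member over the 7 arrays were listed by the root mean square difference, over 19745 named probes outside the family. For Scgb1c1 they were Letmd1 (0.06), Fgd2, Iqce, Trnp1 and Btrc (0.07). For Scgb3a1 they were Lratd1 (0.06), Trmt112, Plin4, Pgm2 and Mydgf (0.07). For Scgb1a1 they were Cntnap2 (0.04), Rab3il1, Sirpb1a and Fgr (0.07). Within a difference of 0.1 lay 35 probes for Scgb1c1, 30 for Scgb3a1 and 72 for Scgb1a1.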

How the data were processed

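The authors hybridised labelled RNA on Agilent mouse 4x44K arrays and quantified them with Agilent Feature Extraction 10.10.1.1, and the deposited values used here are the median spot and background intensities of each channel. Depth has no meaning for arrays, and their number, 7, limits the precision. With limma 3.58.1 in R 4.3.3, the background was corrected by normexp with an offset of 50, the parameters being fitted without spots marked as background outliers, which numbered 966 to 2253 per array. Ratios were normalised by loess within arrays with controls at weight 0. Spots with the not-uniform mark were dropped, and the spots of a probe were averaged. A probe was tested if most of its spots rose well above background for either dye on 3 or more of the 7 arrays. The fit (lmFit, eBayes) held 1 mean per exposure time, and a probe was called if its p, after Benjamini-Hochberg adjustment, was at most 0.05. Channels were compared after Aquantile scaling between arrays. The authors' log ratios on a log10 scale were not used, and their GeneSpring normalisation was not repeated. The methods' test of each time against 0, other background and scaling settings, filters, left-out arrays and a replicate block were tried. RefSeq (GRCm38.p6) named 28330 probes by accession. Named genes were all probes of the 4 members, up to 4 called genes per list with the largest mean log2 ratio over the 7 arrays in size (the tested probe with the highest mean intensity standing for a gene), the 2 highest and 2 lowest other secretoglobins, and the 5 nearest genes to each member, 1 of which is not reported here. A mean over both times is small for a gene that changes sign. Cyp2f2, Cbr2, Hp and Ehf were therefore named outside this rule, for their change between the times. The members and lists were chosen with earlier results of these data known. The fit was tested on simulated data with known changes at 4 weeks. It recovered 92 of 100 changes of 1 on the log2 scale and 59 of 100 changes of 0.5, with 7 false calls. Smaller changes were not simulated.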

Additional observations from a re-analysis of the deposited data

Results flagged for a closer look

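The change of the Scgb1c1 log2 ratio between 4 and 8 weeks was −0.59 (limma, adjusted p = 0.0014), higher with DEPs on 4 of 4 arrays at 4 weeks and lower on 3 of 3 at 8 weeks. It is listed because the ratio of DEP to control RNA differed between the exposure times, which cannot be told apart from the slides.

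The median log2 ratio of the goblet cell markers at 4 weeks was −0.040 on replicate 1, apart from the other 3 arrays of that time, the highest of which was at 0.28. Of 19 such sets of arrays examined, 1 stood out in this way, and chance gives about 1 in 20.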

How the results depend on the processing

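The Scgb1c1 values at 4 weeks (0.30 to 0.44) and between times (−0.64 to −0.55) and the Scgb3a1 value at 4 weeks kept direction and call under every alternative run, the first at 0.20 relative to the median of all probes with processed signals. The 8-week Scgb1c1 value lost its call with normexp on all spots (−0.17, adjusted p = 0.111), median centring (−0.18, 0.0988, and −0.07 relative to the median of all probes), no filter (−0.18, 0.0701), the arrays of that time alone (−0.18, 0.0709) and the methods' test (−0.18, 0.157), and ran from −0.23 to −0.15 with 1 array left out. The 4-week Scgb1a1 value lost its call with the same settings (−0.11, −0.17, −0.18, −0.18 and −0.18, adjusted p = 0.167, 0.0713, 0.0675, 0.0679 and 0.311), with processed signals (−0.10, 0.634) and with 2 settings chosen after seeing the data, the median over spots (−0.085, 0.193) and without outlier spots (−0.10, 0.145), and ran from −0.21 to −0.13 with 1 array left out. Scgb3a1 gained a call at 8 weeks with median centring (−0.39, 0.0071), and its change between times reversed to −0.013 there. Values that had not passed the test reversed with 1 array left out, Scgb1a1 at 8 weeks (−0.025 to 0.071) and Scgb3a1 at 8 weeks (−0.17 to 0.0048). The causes were not tested. In the channels, the control difference of Scgb3a1 (−0.0037) reversed to 0.025 with quantile scaling and 0.024 with the replicate block and ranged from −0.048 to 0.024 with 1 array left out. With no scaling between arrays, under which the median of all probes is −0.13 in each channel, the control differences of Scgb1a1 and Scgb1c1 reversed to −0.0018 and −0.0042 and the DEP difference of Scgb3a1 to −0.055. The DEP difference of Scgb1a1 (0.27, adjusted p = 0.0219) kept its call under 4 of 10 alternatives. Probes called at 4 weeks numbered 9319, or 5821 with normexp on all spots and 3871 by the methods' test. At 8 weeks they numbered 9096, or 2544 by the methods' test and 5142 to 10100 with 1 array left out (5142 without 8-week replicate 2). The change between times gave 7569 probes, and 4514 to 8146 with 1 array left out (4514 without 8-week replicate 2), of which 46.3% were higher, or 27.8% with median centring and 33.5% with processed signals, under which the median of all probes is −0.12. The replicate numbers did not pair the arrays (correlations of same-numbered deviations −0.01, −0.01 and 0.02), and a replicate block gave 3730 probes for the change between times. The methods' test with the study's thresholds gave 264 probes at 4 weeks and 636 at 8 weeks. Dim signal limits Scgb1a1 and Scgb3a2.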
